A study of Homo sapiens with 6 samples.

Results

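The 10 genes described here encode the core machinery of RNA interference, measured by array in PANC-1, a human line derived from a pancreatic carcinoma, after small interfering RNA (siRNA) had been transfected. All probes whose symbol in the deposited table was DICER1, RNASEN (now DROSHA), DGCR8, XPO5, TARBP2, PRKRA or EIF2C1 to EIF2C4 (now AGO1 to AGO4) were taken, which gave 10 of the 30844 gene names and 16 of the 47230 probes on the Illumina BeadChips. Total RNA of 6 samples had been hybridised, 3 from cells that received a control siRNA (siControl) and 3 from cells that received an siRNA against the orphan nuclear receptor NR4A1 (siNR4A1, spelled siTR4A1 in the sample titles). Both groups had thus received an siRNA, and the 6 samples include no untransfected or mock-transfected cells, so what transfection itself does to these genes was not compared. The siRNA sequences, dose and time after transfection were not given in the sources used here, nor whether replicates came from separate cultures. The spread behind each p-value is that of the 6 samples, and may be technical.

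In RNA interference a short RNA guides an Argonaute protein to matching transcripts. For the cell's own microRNAs, the nuclear RNase DROSHA with its RNA-binding partner DGCR8 cuts a hairpin out of the primary transcript, exportin-5 (XPO5) carries the hairpin to the cytoplasm, and the RNase DICER1, aided by the double-stranded RNA-binding proteins TARBP2 (TRBP) and PRKRA (PACT), cuts it to a duplex. One strand is loaded into one of the Argonaute proteins AGO1 to AGO4, of which AGO2 is the main slicer of matching targets. A synthetic siRNA enters at the loading step and uses the same Argonautes.

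Array brightness was uneven, with a mean signal from 332 to 623 and siControl replicate 3 the brightest of the 6. A probe counted as detected on an array above the 95% point of that array's background, which 18231 to 20407 probes exceeded, and the 19066 probes detected on at least 3 arrays were tested. The targeted gene gave no check of the knockdown, since none of its 3 probes was detected on any of the 6 arrays, at signals between 73.3 and 117. Of 6 epithelial and ductal markers, KRT8, KRT18, KRT19 and EPCAM were tested, and KRT7 and CDH1 were not detected on any array. Of 9 markers of other cell types, 3 were tested. Their list's summed deposited signal ran from 882 to 1244 in siControl and from 1010 to 1211 in siNR4A1. For the epithelial and ductal list it ran from 868 to 1846 and from 1217 to 1359. Such sums include undetected probes and array background, whose mode was 86.4 to 114 per probe. They are not amounts of other cells. Of the 3 tested markers of other cell types, CD14 was higher in siNR4A1 by 0.44 ± 0.12 (SE) on the log2 scale (limma, adjusted p = 0.0163). HBA1 differed by 0.40 (limma, adjusted p = 0.0547) and ALB by -0.32 (limma, adjusted p = 0.0586), while PTPRC, PECAM1, CDH5, DCN, INS and PRSS1 did not enter the test. The part of other cells in the results was not tested.

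Of the 16 probes, 12 were detected on all 6 arrays, 1 on 5 arrays and 3 on none, so that 13, or 81.2%, entered the test against 40.4% of all probes. The 3 that were never detected were the single AGO4 probe and 2 of the 4 DICER1 probes. In the limma fit over all 19066 tested probes, 6 of the 13 were higher in siNR4A1 and 2 were lower at an adjusted p under 0.05, where 7.98% of all tested probes were higher, 7.63% were lower and 15.6% were called in either direction. The probes called higher were 2 of DICER1 and 1 each of PRKRA, XPO5, AGO2 and AGO3, and those called lower were 1 each of AGO1 and AGO3. DROSHA, DGCR8 and TARBP2 had no probe past the threshold. The 13 probes stand for 9 genes. In a separate fit on the brightest probe of each gene, 4 of the 9 were higher and 2 lower, against 1484 and 1193 of 13777 genes. In a fit on probes detected on all 6 arrays, 7 of 12 member probes were called, against 3125 of 15250 probes. The median log2 change of the 13 was 0.19, and that of all tested probes was 0.01. In RNA from whole cultures, fewer cells expressing a gene and less of its RNA per cell cannot be told apart.

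**Figure D1:**
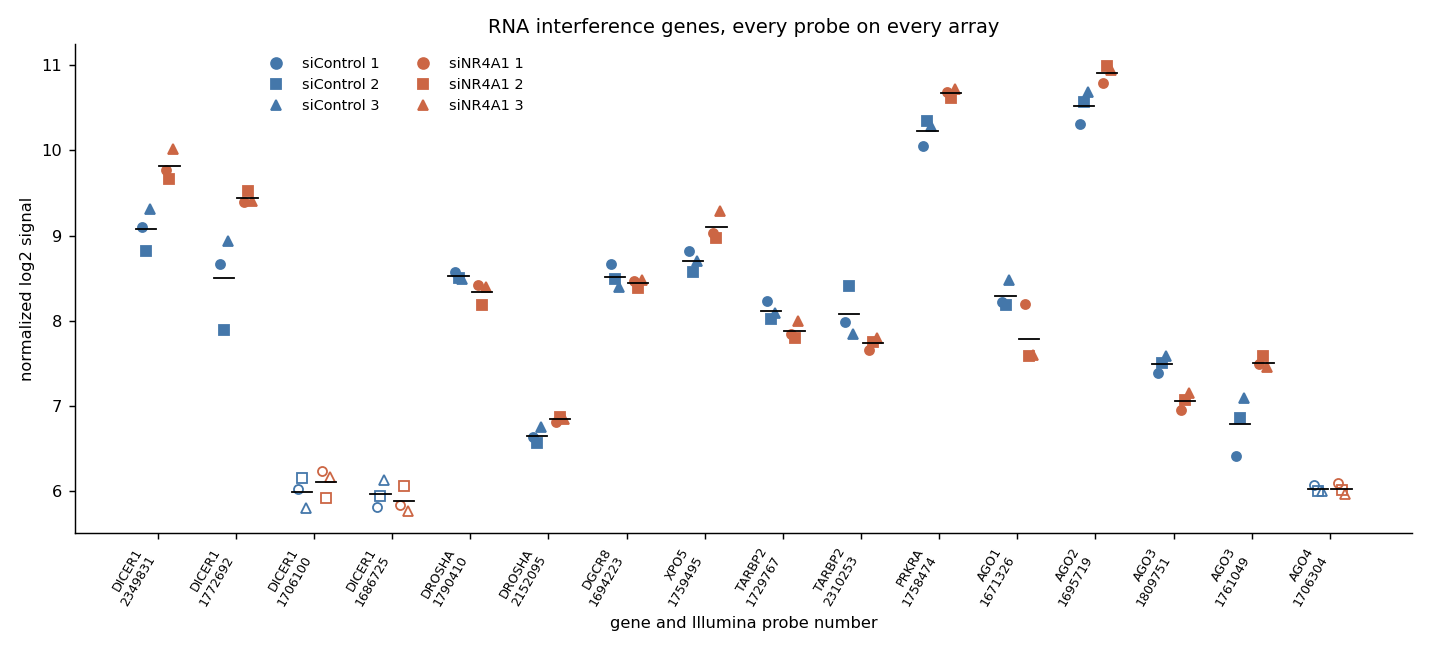
Normalized log2 signal (vertical axis) of all 16 probes (horizontal axis, by gene and Illumina probe number) on each of the 6 arrays; colour marks the group, symbol shape the replicate, black lines the group means, and open symbols the 3 probes that were never detected. The siNR4A1 arrays lie above siControl for both detected DICER1 probes, and the pair of AGO3 probes moves in opposite directions.

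The groups did not overlap in normalized log2 signal for 11 of the 13 tested probes, 7 with siNR4A1 higher and 4 with it lower, while groups did not overlap for 33.1% of all tested probes, 17.6% with siNR4A1 higher and 15.5% with it lower. On the deposited signals, before any normalization, the groups overlapped for every one of the 13, with siControl replicate 3 among or above the siNR4A1 arrays. The calls below therefore depend on how the arrays were scaled to each other. How often the groups overlapped on the deposited signals over all tested probes was not counted. The overlap is thus not read as particular to these genes. Quantile normalization was used. With array medians or medians of detected probes equalized instead, each of the 8 called probes kept its direction. Under the second, 4 of them passed, where 1142 of all 19066 tested probes passed. With array medians equalized, 0 of the 13 passed in limma, 5 had an unadjusted p under 0.05, and over all probes 0 passed and 1489 had an unadjusted p under 0.05.

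**Figure D2:**
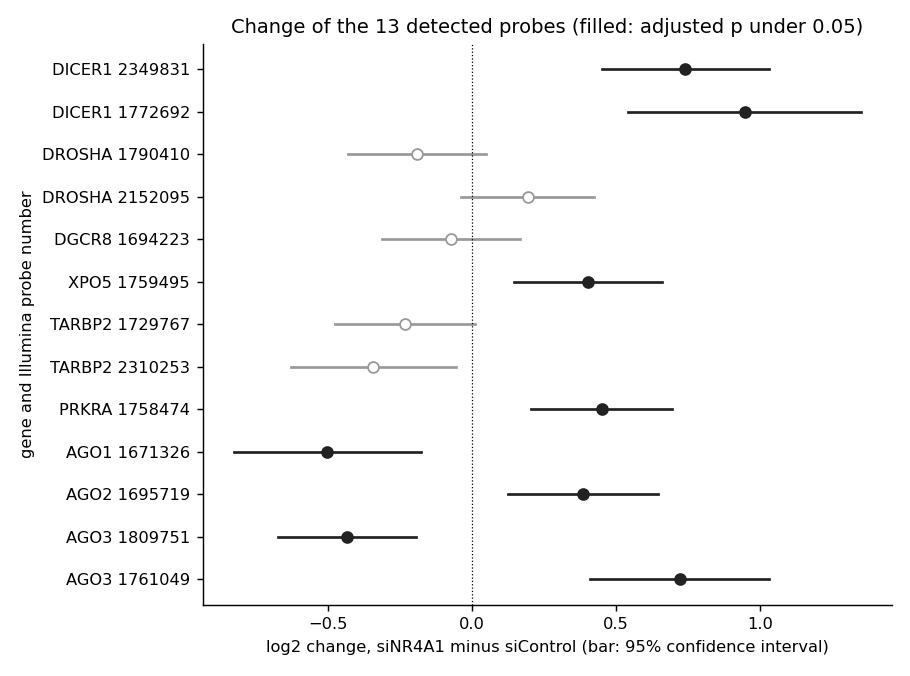
Log2 change, siNR4A1 minus siControl (horizontal axis), of the 13 tested probes, 3 arrays per group, with the 95% confidence interval from limma as a bar; filled points had an adjusted p under 0.05. Intervals of 8 probes clear 0 and pass after adjustment. The interval of TARBP2 ILMN_2310253 clears 0 (-0.63 to -0.06) without passing (limma, adjusted p = 0.0999), and the 2 DROSHA probes lie on opposite sides of 0.

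Among the nuclear steps, DROSHA and DGCR8 showed no change that passed the test. DROSHA was read by 2 probes. The brighter, ILMN_1790410, had normalized log2 signals of 8.57, 8.51 and 8.49 on siControl arrays 1 to 3 and of 8.42, 8.18 and 8.40 on siNR4A1 arrays 1 to 3. It was lower on every siNR4A1 array, by a log2 difference of -0.19 ± 0.11 (SE, n = 3 per group), with an adjusted p of 0.275 in limma. The dimmer, ILMN_2152095, read 6.63, 6.56 and 6.75 against 6.81, 6.86 and 6.84, and so was higher on every siNR4A1 array, by 0.19 ± 0.11 (SE, 3 arrays per group; limma, adjusted p = 0.256). Both groups of the dimmer probe were detected throughout, but its deposited signal on siControl replicate 1 was 111 against a threshold of 102 there. The probes of this RNase thus disagreed in sign without either passing. DGCR8, the partner that recognises the hairpin, had 1 probe at 8.66, 8.49 and 8.40 in siControl and 8.47, 8.38 and 8.47 in siNR4A1, groups that overlapped. Its difference was -0.08 ± 0.11 (SE, n = 3 per group), with a 95% confidence interval from -0.31 to 0.17.

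XPO5, the export receptor of hairpin precursors, rose in siNR4A1. Its single probe read 8.81, 8.57 and 8.70 on the siControl arrays and 9.03, 8.97 and 9.29 on the siNR4A1 arrays, with no overlap. The log2 change was 0.40 ± 0.12 (SE, n = 3 per group), or 1.32-fold (limma, adjusted p = 0.0344). The call was lost in 8 of 17 alternatives, among them leaving out siControl replicate 2 (0.34) or 3 (0.40) or siNR4A1 replicate 1 (0.43) or 3 (0.30).

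DICER1, which cuts both hairpins and long double-stranded RNA into short duplexes, rose on both of its detected probes. On the deposited linear scale ILMN_2349831 had signals of 422, 336 and 1023 on siControl arrays 1 to 3 and of 907, 964 and 1236 on siNR4A1 arrays 1 to 3. After normalization its log2 signals were 9.10, 8.82 and 9.31 in siControl and 9.78, 9.66 and 10.01 in siNR4A1. The lowest siNR4A1 array was above the highest siControl array, and the log2 change was 0.74 ± 0.14 (SE, n = 3 per group), or 1.67-fold (limma, adjusted p = 0.00188). ILMN_1772692 had deposited signals of 325, 197 and 791 against 699, 874 and 817. Normalized, it read 8.67, 7.88 and 8.94 against 9.39, 9.53 and 9.41, where the siControl arrays were spread over a wider range than the siNR4A1 arrays. It rose by 0.95 ± 0.19 (SE, n = 3 per group), or 1.93-fold (limma, adjusted p = 0.00338). Both probes read transcripts of 1 gene in the same RNA, so they are not replicates of each other.

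The DICER1 calls were the most stable of the family among the settings tried. ILMN_2349831 passed in 16 of 17 alternatives and ILMN_1772692 in 15 of 16, the exception being array medians equalized, where the changes were 0.95 and 1.11. Leaving out the bright siControl replicate 3 gave 0.86 and 1.16, both past the threshold, and leaving out siControl replicate 2, which was low on both probes, gave 0.62 and 0.65, both past it. The ratio of ILMN_2349831 to the brighter DROSHA probe within an array, which no scaling of a whole array alters on the deposited signals, was 0.47, 0.27 and 0.79 on the log2 scale in siControl and 1.32, 1.43 and 1.58 in siNR4A1. The groups did not overlap in this ratio, which was picked after the values were seen and is given without a test. The mean of the ratio shifted by 0.93, against 0.74 for ILMN_2349831 alone. The DROSHA probe used differed by -0.19, while the dimmer DROSHA probe differed by 0.19 and was not used. This ratio thus says only that its probes changed unequally.

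The other 2 DICER1 probes gave no measurement. ILMN_1706100 had deposited signals of 85.8, 88.2 and 97.6 in siControl and 99.0, 96.4 and 110.9 in siNR4A1, and ILMN_1686725 had 78.2, 80.9 and 115.2 against 82.2, 103.5 and 91.5. All 12 of these values were under the detection threshold of their array. Exact two-sided permutation tests on the normalized values gave p = 0.5 and p = 0.6, and 3 against 3 arrays cannot give a p below 0.1. The probe sequences were not used here, so which DICER1 transcripts the 4 probes match was not examined.

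By the nearest pattern over the 6 arrays, among probes detected on all of them and with each probe centred on its own mean, ILMN_2349831 was followed most closely by probes of PYCARD, an adaptor of inflammasomes, of DCXR, a carbonyl reductase, and of FAM133B. Their root mean square differences from it were 0.046, 0.057 and 0.063 on the log2 scale. Their log2 changes were 0.71, 0.70 and 0.70 against 0.74 for ILMN_2349831, and a similar difference between groups lowers this distance. They were picked as the nearest of all such probes over only 6 arrays, and shared regulation was not tested.

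**Figure D3:**
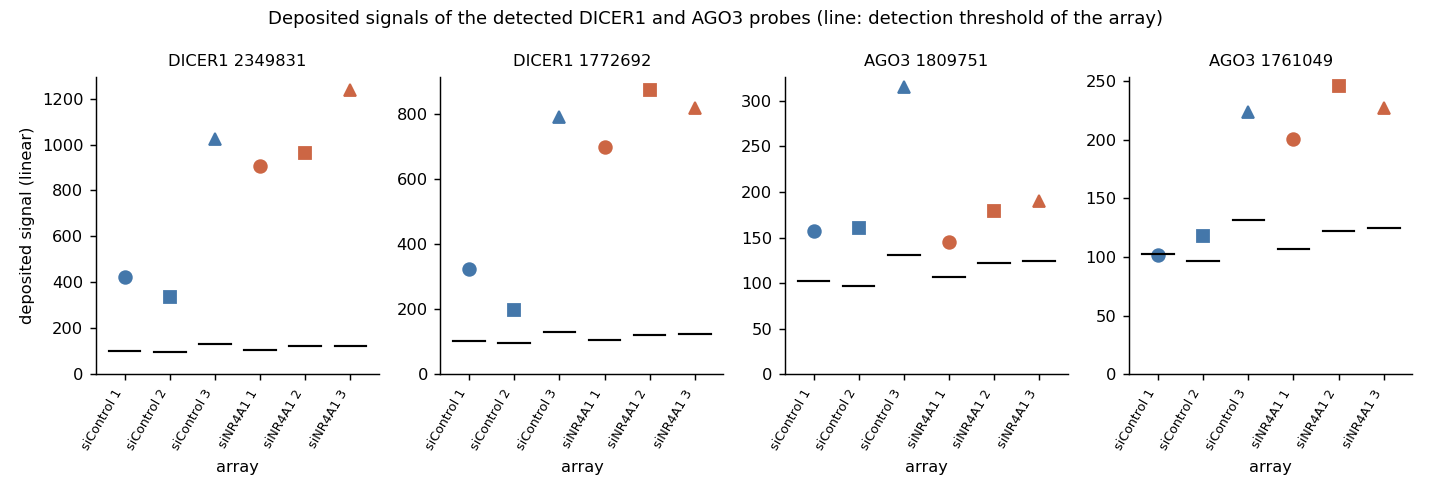
Deposited linear signal (vertical axis, from 0) of the detected DICER1 and AGO3 probes on each array (horizontal axis), with siControl in blue and siNR4A1 in orange; black lines mark the detection threshold of each array. The bright array siControl replicate 3 reaches the siNR4A1 levels of both DICER1 probes, and siControl replicate 3 lies above all siNR4A1 arrays for the AGO3 probe ILMN_1809751 but among them for ILMN_1761049.

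The partners of DICER1 differed from each other. PRKRA, also an activator of the double-stranded RNA-dependent kinase PKR, rose in siNR4A1. Its single probe read 10.05, 10.34 and 10.29 on the siControl arrays and 10.69, 10.62 and 10.72 on the siNR4A1 arrays, with no overlap and with little spread within siNR4A1. The log2 change was 0.45 ± 0.12 (SE, n = 3 per group), or 1.37-fold (limma, adjusted p = 0.0147). It was lost in 5 of 17 alternatives, including those without siControl replicate 1 (0.36) and without siNR4A1 replicate 1 (0.44) or 3 (0.43).

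TARBP2, the partner that joins DICER1 in the loading complex, was lower on every siNR4A1 array with both of its probes, but neither passed. ILMN_1729767 read 8.23, 8.02 and 8.09 in siControl and 7.84, 7.80 and 8.0 in siNR4A1, a difference of -0.23 ± 0.11 (SE, 3 arrays per group; limma, adjusted p = 0.184). ILMN_2310253 read 7.98, 8.40 and 7.84 against 7.66, 7.75 and 7.79, a difference of -0.34 ± 0.14 (SE, 3 arrays per group; limma, adjusted p = 0.0999). The second probe passed in 1 of 16 alternatives, without siControl replicate 3, at -0.45.

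The Argonautes went in different directions. AGO2, the slicer, rose on its single probe, from 10.31, 10.57 and 10.68 in siControl to 10.79, 10.99 and 10.94 in siNR4A1. The groups did not overlap, and the log2 change was 0.39 ± 0.12 (SE, n = 3 per group), or 1.31-fold (limma, adjusted p = 0.0427). This was the call nearest to the threshold, and it was lost in 9 of 17 alternatives. Of the single arrays, leaving out siControl replicate 1 (0.28) or 2 (0.41), or siNR4A1 replicate 1 (0.44), 2 (0.34) or 3 (0.36), each ended it.

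AGO1 fell on its single probe, with siControl arrays at 8.22, 8.18 and 8.48 and siNR4A1 arrays at 8.19, 7.58 and 7.59. The siNR4A1 replicate 1 lay within the siControl range, so the groups overlapped, and the fall was carried by the remaining siNR4A1 arrays. AGO1 fell by 0.50 on the log2 scale, with an SE of 0.15 (n = 3 per group), or 1.42-fold (limma, adjusted p = 0.0352). The call was lost in 7 of 17 alternatives, among them leaving out siControl replicate 1 (-0.55) or 3 (-0.40) or siNR4A1 replicate 2 (-0.40) or 3 (-0.40). On the deposited signals the within-array log2 ratio of the AGO2 probe to the AGO1 probe was 1.92, 2.15 and 2.14 in siControl and 2.53, 3.27 and 3.25 in siNR4A1. It was higher on each siNR4A1 array than on any siControl array, and was likewise picked after the values were seen and is given without a test. Signals of different probes are not comparable as amounts, so this ratio says only that the probes changed unequally.

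AGO3 was read by 2 detected probes that changed in opposite directions, both past the threshold. ILMN_1761049 had deposited signals of 102, 118 and 224 on the siControl arrays and of 200.5, 246 and 227 on the siNR4A1 arrays, and was below the detection threshold on siControl replicate 1. Normalized, it read 6.41, 6.86 and 7.09 against 7.48, 7.58 and 7.45, and rose by 0.72 ± 0.15 (SE, n = 3 per group), or 1.65-fold (limma, adjusted p = 0.0037). ILMN_1809751 had deposited signals of 157, 161 and 315 against 145, 179 and 189.9. Normalized, it read 7.39, 7.50 and 7.58 against 6.95, 7.06 and 7.15, and fell by 0.43 ± 0.11 (SE, n = 3 per group), or 1.35-fold (limma, adjusted p = 0.0159). For neither probe did the normalized groups overlap.

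On the deposited signals, scaling a whole array does not alter the ratio between the 2 AGO3 probes, while both calls depended on the scaling. The ratio does depend on array background, which was not removed from it. The log2 ratio of ILMN_1761049 to ILMN_1809751 within each array, taken from the deposited signals, was -0.63, -0.45 and -0.49 in siControl and 0.46, 0.45 and 0.26 in siNR4A1. The shift of its mean was 0.91, with SDs of 0.096 and 0.116 (n = 3 per group), and the groups did not overlap. This ratio, too, was taken after the values of both probes were seen and is given without a test, and on siControl replicate 1 it uses a value of ILMN_1761049 just under the detection threshold. The rise was kept in 13 of 15 alternatives and the fall in 13 of 17. With array medians equalized both calls were lost, at 0.73 (limma, adjusted p = 0.551) and -0.36 (limma, adjusted p = 0.746). The fall was also lost without siNR4A1 replicate 1 (-0.38) or 2 (-0.43). With the mean of both probes taken for the gene, AGO3 differed by 0.14 and did not pass. For comparison, the within-array ratio of the 2 detected DICER1 probes shifted by -0.14 between the groups, that of the TARBP2 probes by 0.09 and that of the DROSHA probes by -0.22 on the deposited signals, and in each of these the groups overlapped. On the normalized values the DROSHA ratio shifted by -0.38 and its groups did not overlap, while the AGO3 ratio shifted by 1.16. Across the arrays, 3490 genes had at least 2 tested probes, and AGO3 was 1 of 3 among them, or 0.086%, with probes called in both directions.

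AGO4 was detected on none of the 6 arrays, with deposited signals of 87.9, 82.9 and 108 in siControl and 92.5, 100.7 and 100.7 in siNR4A1. No direction is given for it. In the RefSeq annotation AGO4, AGO1 and AGO3 lie next to each other on chromosome 1, and of these neighbours one was not detected, one fell and one had probes in both directions.

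**Figure D4:**
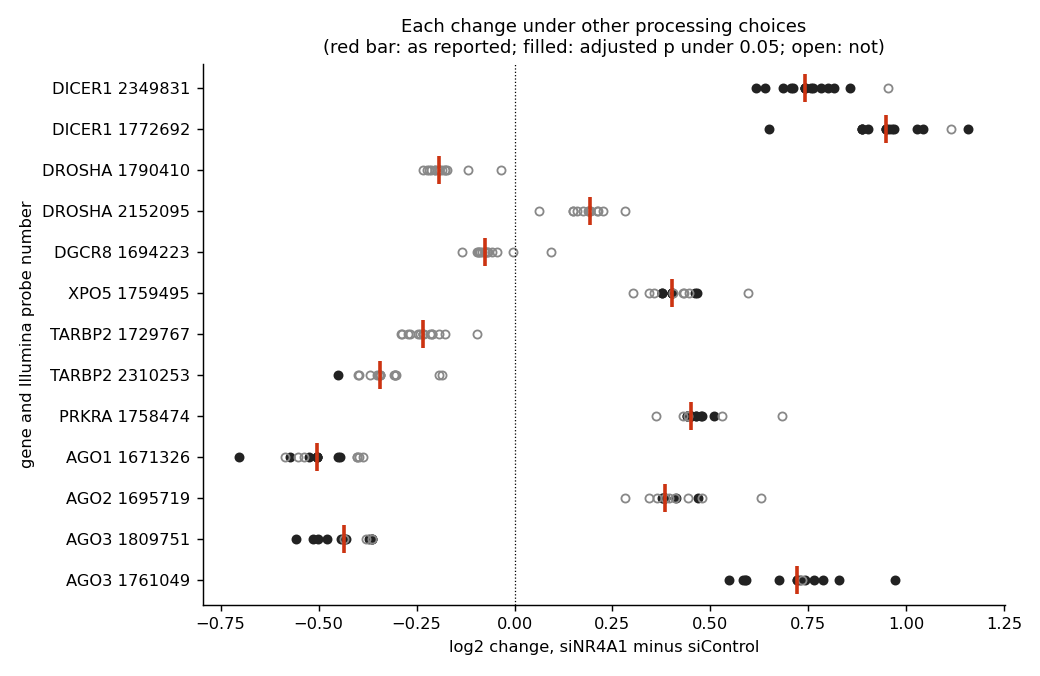
Log2 change, siNR4A1 minus siControl (horizontal axis), of each tested probe as reported (red bar) and under the other processing choices (points; filled where the adjusted p was under 0.05), leaving out the setting that averages a gene's probes. The points of each DICER1 and each AGO3 probe keep to one side of 0 and are mostly filled. They lie above 0 for both DICER1 probes and for AGO3 ILMN_1761049, and below 0 for AGO3 ILMN_1809751. For XPO5, PRKRA, AGO1 and AGO2 the points of each probe lie on one side of 0 with both filled and open points.

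The 250 bases before the RefSeq transcript starts were searched, on both strands, for the NBRE, the site that NR4A receptors bind as monomers (AAAGGTCA, or TGACCTTT on the other strand), and for the GC box of SP-family factors (GGGCGG, or CCGCCC); these motifs cannot overlap. The table held 17 such windows for 9 of the 10 genes and none for AGO2. The NBRE letters were in 0 of the 17 windows and in 1.05% of all 35116 windows, and the GC box was in 12 of the 17 and in 42.6% of all. AGO4 was the only one of the 9 genes with no GC box in any of its windows. The windows of the most upstream start of DICER1 and PRKRA, which rose, and of AGO1, which fell, are shown because these genes moved past the threshold and differ in how many matches they hold. They come from RefSeq, build GRCh38.p14, at chr14:95158011-95158260 (minus strand) for DICER1, at chr2:178451176-178451425 (minus strand) for PRKRA and at chr1:35882959-35883208 (plus strand) for AGO1, are written 5′ to 3′ on the gene's strand, and carry GC boxes in capitals.
DICER1: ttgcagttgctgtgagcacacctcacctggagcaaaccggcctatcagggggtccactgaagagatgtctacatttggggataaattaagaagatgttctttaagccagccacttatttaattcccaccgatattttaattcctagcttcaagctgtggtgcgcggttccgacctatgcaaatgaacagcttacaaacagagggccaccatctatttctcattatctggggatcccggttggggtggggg
PRKRA: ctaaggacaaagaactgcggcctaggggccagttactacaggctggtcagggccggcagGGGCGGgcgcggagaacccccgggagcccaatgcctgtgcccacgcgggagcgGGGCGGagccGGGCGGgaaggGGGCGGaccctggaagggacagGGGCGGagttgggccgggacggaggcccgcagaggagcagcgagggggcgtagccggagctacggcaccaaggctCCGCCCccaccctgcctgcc
AGO1: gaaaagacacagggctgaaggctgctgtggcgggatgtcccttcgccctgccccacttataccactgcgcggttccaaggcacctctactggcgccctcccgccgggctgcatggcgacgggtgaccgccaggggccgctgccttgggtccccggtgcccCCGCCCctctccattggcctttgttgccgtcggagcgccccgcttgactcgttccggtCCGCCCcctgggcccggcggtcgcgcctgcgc
The DICER1 window held 0 matches with 48.0% G and C, that of PRKRA 6 with 74.0%, and that of AGO1 2 with 71.6%. DICER1 had 5 annotated starts, of which 2 had a GC box. The window at chr14:95157530-95157779 held 1 match with 74.0% G and C, and that at chr14:95157903-95158152 held 1 with 52.0%. The latter overlaps the DICER1 window shown, and its GC box begins in the last bases of that window and runs past its end. The 0 of the DICER1 window shown thus depends on where the window was cut. A match is a description of the letters, and binding was not measured.

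Around the core, 7 lists of genes that assist or use the machinery were counted, each gene read by its brightest tested probe. Over 13777 genes read in this way 9.28% were higher and 7.74% were lower in siNR4A1. Of 10 tested cofactors of the DROSHA-DGCR8 complex, 0 rose, 2 fell and 8 missed the threshold, with a median log2 change of -0.20. The RNA helicase DDX5 fell by 0.50 ± 0.12 (SE; limma, adjusted p = 0.0119), from 12.30, 12.20 and 12.39 in siControl to 11.91, 11.92 and 11.55 in siNR4A1. The RNA-binding protein HNRNPA1 fell by 0.57 ± 0.13 (SE, limma, adjusted p = 0.0074) on one probe, while its other tested probe differed by 0.02, and HNRNPA1 has many processed copies in the genome. The HNRNPA1 probe that fell was dim, with deposited signals of 225 to 353 in siControl and 185 to 245 in siNR4A1. The background mode of the arrays was 86.4 to 114.

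Of 13 tested chaperones and other factors that help load a duplex into Argonaute, 4 fell, 2 rose and 7 missed the threshold, with a median of -0.24. The HSP90 activator AHSA1 fell by 0.91 ± 0.12 (SE; limma, adjusted p = 9.03e-05), the HSP70-HSP90 adaptor STIP1 fell by 0.44, and the kinase cochaperone CDC37 fell by 0.43. The immunophilin FKBP4, an HSP90 cochaperone, rose by 0.48 ± 0.12 (SE; limma, adjusted p = 0.00969). Of 13 tested GW182 proteins and Argonaute partners, out of 16 listed, 1 rose, 3 fell and 9 missed the threshold, with a median of -0.16. TNRC6B, a GW182 scaffold that links Argonaute to deadenylation, fell by 0.41 ± 0.12 (SE; limma, adjusted p = 0.0304), the importin IPO8 fell by 0.44 and the Argonaute-associated protein GEMIN4 fell by 0.39. The LIM-domain protein WTIP rose by 0.50 on one probe, with 0.21 on the other.

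Among 11 tested genes of small RNA tailing and turnover, 1 rose, 0 fell and 10 missed the threshold, with a median of 0.00. The riser was LIN28B, which binds let-7 precursors and blocks their maturation. Its log2 signals were 8.94, 8.77 and 8.99 in siControl and 9.79, 9.79 and 9.72 in siNR4A1, a rise of 0.87 ± 0.11 (SE, 3 arrays per group; limma, adjusted p = 9.43e-05). LIN28A was not detected on enough arrays to be tested. Of 16 listed sensors and editors of double-stranded RNA, which can respond to introduced duplexes, 8 were tested, and 1 rose, 1 fell and 6 missed the threshold, with a median of -0.17. The editing enzyme ADARB1 rose by 0.48 ± 0.11 (SE; limma, adjusted p = 0.00812) on one of its tested probes and differed by -0.04 on the other, and the oligoadenylate synthetase OAS3 fell by 0.40 ± 0.11 (SE; limma, adjusted p = 0.0265). Too few arrays detected the others, among them IFIH1, DHX58 and TLR3, for a test. Of 4 PIWI-clade Argonautes only PIWIL2 was tested, at 0.09 ± 0.13 (SE; limma, adjusted p = 0.689).

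**Figure D5:**
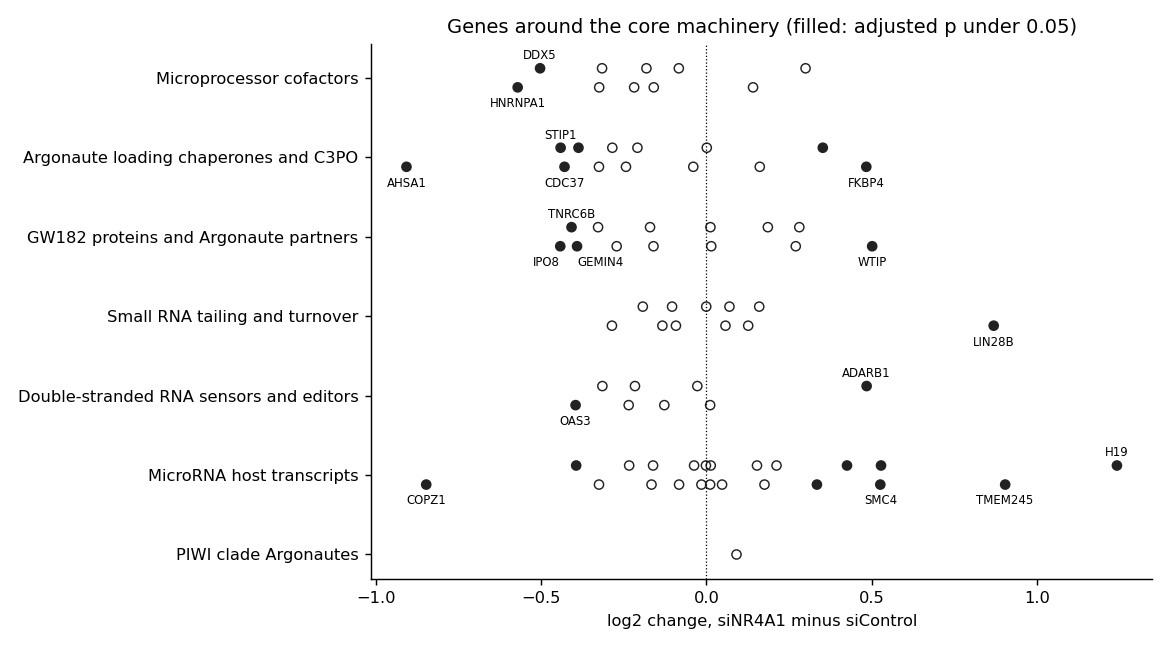
Log2 change, siNR4A1 minus siControl (horizontal axis), of the tested genes of the 7 lists around the core machinery, 1 point per gene, filled where the adjusted p was under 0.05. Names mark genes past the threshold under the naming rule; H19 lies furthest to the right and AHSA1 furthest to the left.

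Of 30 listed host transcripts of microRNAs, 22 were tested, and 6 rose, 2 fell and 14 missed the threshold, with a median of 0.01. The arrays read the host RNA and not the mature microRNA. H19, a noncoding RNA that holds miR-675, rose from 6.80, 7.15 and 7.22 in siControl to 8.19, 8.37 and 8.34 in siNR4A1, by 1.24 ± 0.13 (SE, 3 arrays per group; limma, adjusted p = 1.41e-05). TMEM245, the host of miR-32, rose from 9.37, 9.20 and 9.32 to 10.27, 10.18 and 10.14, by 0.90 ± 0.11 (SE). SMC4, a condensin subunit whose introns hold miR-15b and miR-16-2, rose by 0.53 ± 0.11 (SE), with its 3 tested probes between 0.32 and 0.68. COPZ1, a coatomer subunit and the host of miR-148b, fell from 10.49, 10.52 and 9.97 to 9.64, 9.51 and 9.29, by 0.85 ± 0.15 (SE). The mature sequences are given from RefSeq (GRCh38.p14) with the seed, bases 2 to 8, in capitals, for the hosts named and for let-7a, whose precursors LIN28B binds.
hsa-miR-675-5p: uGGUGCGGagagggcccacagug
hsa-miR-32-5p: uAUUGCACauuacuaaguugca
hsa-miR-15b-5p: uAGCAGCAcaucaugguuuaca
hsa-miR-16-5p: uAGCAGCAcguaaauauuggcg
hsa-miR-148b-3p: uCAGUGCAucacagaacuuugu
hsa-let-7a-5p: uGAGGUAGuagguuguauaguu
Of these, miR-15b and miR-16, the latter shown from its miR-16-2 copy in SMC4, share the seed AGCAGCA, and the others each have a seed of their own. Mature miR-16 is not read through SMC4 alone, and its amount was not measured. In that build miR-675-5p lies at chr11:1996800-1996822 (minus strand), miR-32-5p at chr9:109046272-109046293 (minus strand), miR-15b-5p at chr3:160404607-160404628 (plus strand), this copy of miR-16-5p at chr3:160404754-160404775 (plus strand), miR-148b-3p at chr12:54337278-54337299 (plus strand) and the copy of let-7a-5p shown at chr9:94175962-94175983 (plus strand).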

How the data were processed

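Total RNA of 3 siControl and 3 siNR4A1 samples of PANC-1 cells was read on Illumina BeadChips as biotin-labelled cRNA. The submitters' processing notes name BeadStudio, without a version. Per the file headers, the deposited intensity table holds non-normalized linear signals per probe, and it has no detection p-values or control probes. The log2 values deposited by the authors beside it differ by at most 0.005 from quantile-normalized log2 signals and served as an alternative.

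Intensities were corrected with normexp (offset 50), quantile normalized and put on the log2 scale in limma 3.58.1 (R 4.3.3); the offset understates the change of dim probes. An array's background was the mode of its log2 signals (bandwidth 0.03) and the spread below it, and probes above its 95% point on at least 3 arrays were tested. Groups were compared probe by probe with lmFit and eBayes on all 6 arrays, with Benjamini-Hochberg adjustment over all 19066 tested probes and a threshold of 0.05. The number of arrays limits the precision. The fit was tested on simulated data.

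Named were every member with every probe, up to 4 genes per further list past the threshold with the smallest p (where none passed, the 2 lowest in p, or all where fewer were tested), and the 3 probes nearest in pattern to the member probe with the smallest adjusted p. Members and lists were chosen with earlier results of these data known. Symbols were updated through RefSeq's gene table (GRCh38.p14), by which 4626 probes were renamed. Same-numbered replicates deviated together with r = 0.038, 0.101 and 0.176, and differently numbered ones with r between -0.132 and 0.042. Only siNR4A1 replicate 1 correlated better with another number (0.042 against 0.038). The numbers were not taken to pair the samples, and a fit with them as a block is among the alternatives. The 17 alternatives are given at the end.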

Additional observations from a re-analysis of the deposited data

How the results depend on the processing

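Under the 17 alternatives, 8 member probes called became 5 with an offset of 16, 0 with array medians equalized, 4 with medians of detected probes equalized and 5 when the probes of a gene were averaged (9 genes tested), and 4 to 7 with 1 array left out. Over all probes, 2976 calls became 0 with array medians equalized (1489 at an unadjusted p under 0.05), 1142 with medians of detected probes equalized, and 1506 to 3423 with 1 array left out. With array medians equalized the median change of all probes was 0.11 and DGCR8 stood at 0.094, above 0. When probes were averaged, DROSHA stood at 0.00031 and AGO3 at 0.14, since their probes had opposite signs. No other member probe changed sign. With the replicate number as a block, 3447 probes and 8 member probes passed. Every sample except siNR4A1 replicate 1 correlated best with its own number. The causes of the lost calls were not tested. Signal over background limits AGO4 and 2 DICER1 probes, for which no change could be measured.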

Other observations

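The other genes with tested probes called in both directions were INIP, a subunit of a single-stranded DNA-binding complex, and RBM12, an RNA-binding protein; both were picked after their values were seen. INIP differed by 0.37 on ILMN_2079098 and by -0.60 on ILMN_1688621. RBM12 differed by 0.63 on ILMN_1797698 and by -0.42 on ILMN_2329834, and a further probe, ILMN_1701229, at -0.34, did not pass (limma, adjusted p = 0.216).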
